A study of Mus musculus with 9 samples.

Results

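Neurturin (Nrtn) and 7 further neurotrophic factor genes were examined in the brain RNA of 9 mice, as 8 named genes of the 38621 in the deposited table. They comprise the ligands Nrtn, Gdnf, and Ntf3, the co-receptors Gfra1 and Gfra2, and the receptor tyrosine kinases Ret, Ntrk2, and Ntrk3. Nrtn was chosen because it was lower after intracerebral hemorrhage (ICH) and higher with febuxostat in these same mice, so its values in those contrasts are a description and carry no test. The other 7 were chosen by family, with earlier results of these data known.

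Neurturin and GDNF are secreted survival factors of the GDNF family. Each binds a GFRα co-receptor held on the cell surface by a lipid anchor, Gfra2 being the preferred partner of neurturin and Gfra1 that of GDNF, and the complex then activates the Ret tyrosine kinase. The neurotrophins form a separate family that signals through Trk kinases: the product of Ntf3 acts mainly on the Ntrk3 receptor (TrkC), and BDNF acts on the Ntrk2 receptor (TrkB). Both families are known for supporting the survival of neurons, among them midbrain dopaminergic neurons in the case of GDNF and neurturin, and astrocytes carry a truncated form of TrkB.

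All mice were male C57BL/6, 3 in each group, and their age is not given in the sources used here. ICH mice received 30 μl of their own blood into the brain, the study's methods state that sham mice were injected with saline although the labels call them untreated, and feb mice were gavaged with 50 mg/kg of febuxostat, a xanthine oxidase inhibitor, once a day over the 5 days preceding the hemorrhage. Tissue is labeled as brain, and neither the dissected region nor the time after injection is named for these libraries. Values are RPKM, the reads of a gene divided by the length of its exons and by the reads counted on genes in that mouse, and between 23065757 and 29538009 reads per mouse were counted. Neuronal, astrocyte, oligodendrocyte, and microglia markers were above 0 in every mouse. Levels of region markers varied widely among mice of the same group. The summed RPKM of 8 striatal markers ran from 108 to 632 in the sham mice alone, and that of 7 thalamic markers from 33.5 to 175 in the ICH mice.

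Nrtn lies on chromosome 17 from 56751325 to 56757530 (GRCm38, minus strand) and has 3 exons of 1023 bases in all, of which 585 code for the protein. No other gene in the table overlaps it. The 250 bases before its RefSeq start site, at chr17:56757549-56757798 (GRCm38.p6, minus strand), are shown because Nrtn is the gene on which the choice of the group rests. Capitals mark a GC box (GGGCGG, searched on both strands).

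Nrtn promoter: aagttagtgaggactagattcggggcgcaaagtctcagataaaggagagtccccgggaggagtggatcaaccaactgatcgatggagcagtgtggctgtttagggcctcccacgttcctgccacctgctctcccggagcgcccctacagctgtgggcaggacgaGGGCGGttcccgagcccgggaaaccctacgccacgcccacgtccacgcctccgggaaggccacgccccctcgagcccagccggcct

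The stretch is 64.8% G and C, against a median of 52.4% over 32851 promoters of the same length, and holds 19 CpG dinucleotides, against a median of 6. A GC box on either strand was found in 32.7% of those promoters. A TATA box (TATAAA, in 12.4% of promoters) and an E box (CACGTG, in 6.02%) were searched on both strands, and these letters are not in this window.

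The RPKM of Nrtn was 1.85, 1.42, and 1.53 (sham), 0.639, 0.595, and 1.05 (ICH), and 2.03, 1.55, and 1.70 (feb). All 3 ICH mice lay below all sham and all feb mice, and the sham and feb mice overlapped. The fitted log2 fold change was -1.01 (standard error, SE, 0.22) between ICH and sham, just past the 2-fold limit of 1 on this scale, and 1.14 (SE 0.22) between feb and ICH. Both contrasts contain the ICH mice, so a low value in those mice enters both. The ratio of mean RPKM was 0.474 for ICH over sham and 2.31 for feb over ICH. Between feb and sham the log2 fold change was 0.13 (SE 0.22). In bulk tissue, fewer cells expressing a gene and less RNA per cell cannot be told apart.

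These levels rested on few reads. Nrtn had 56, 38, and 44 reads (sham), 16, 16, and 28 reads (ICH), and 55, 40, and 40 reads (feb). The third ICH mouse was the nearest to the other groups, and its 95% exact Poisson interval (0.694 to 1.51), which covers counting error only, overlapped that of the lowest sham mouse (1.01 to 1.95). The intervals of the other ICH mice ended at 1.04 and 0.966. Summed over each group, the reads of Nrtn came to 138 (sham), 60 (ICH), and 135 (feb). Within groups, the variance of its reads was 1.33 times the counting variance, whereas for Gdnf and Ntf3, with mean reads of 31.3 and 38.8 against 37.0 for Nrtn, it was 9.07 and 7.20 times. Nrtn was chosen for groups that part in these values, a choice that favors a small spread within groups, so its ratio is a description and nothing is read from it against the other ligands. When 1 was added to the RPKM instead of 0.1, the log2 fold changes of Nrtn were -0.57 and 0.65.

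**Figure D1:**
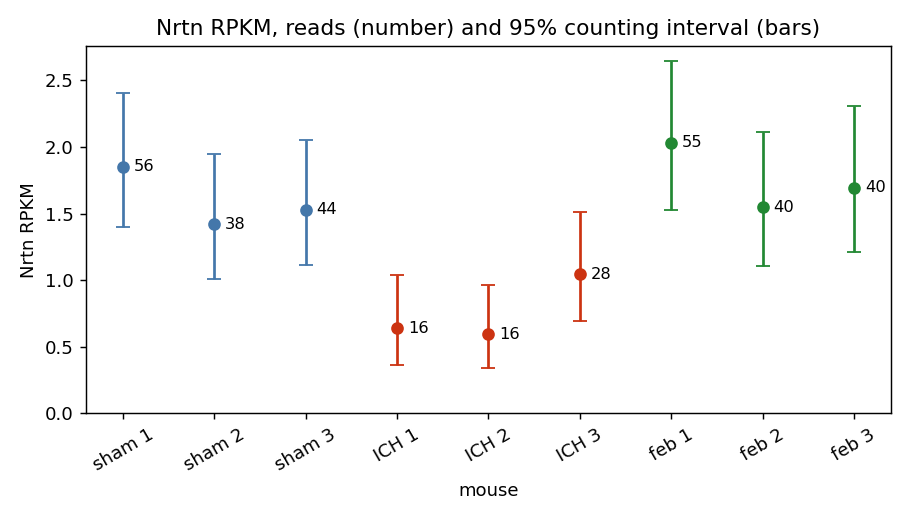
RPKM of Nrtn (vertical axis) in each of the 9 mice, with the reads behind it as a number and the 95% exact Poisson interval as bars. The ICH mice had 16, 16, and 28 reads and sit below the sham and feb mice, whose lowest values rest on 38 and 40 reads.

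Differences of the other 7 genes were tested with limma on log2(RPKM + 0.1) over 29025 genes, in which all 8 passed the filter on low values. A gene was called when its unadjusted p was under 0.05 and its fold change over 2, the criteria of the study, and Benjamini-Hochberg adjusted p-values over all genes tested are given beside. Between ICH and sham, 1 of the 7 genes, Ret, was called, and it was lower, against 2.53% of all genes tested that were called in either direction and 1.07% that were called lower. Between feb and ICH 0 of the 7 were called, against 2.43% of all genes, and between feb and sham 0 of 7, against 2.20%. After adjustment in limma 0 of the 7 passed in any contrast, where 7, 2, and 1 of all genes tested (0.0241%, 0.00689%, and 0.00345%) did. An unadjusted p under 0.05 was reached by 2 of the 7 between ICH and sham, 1 between feb and ICH, and 0 between feb and sham, where 12.3%, 11.1%, and 8.54% of all genes reached it.

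**Figure D2:**
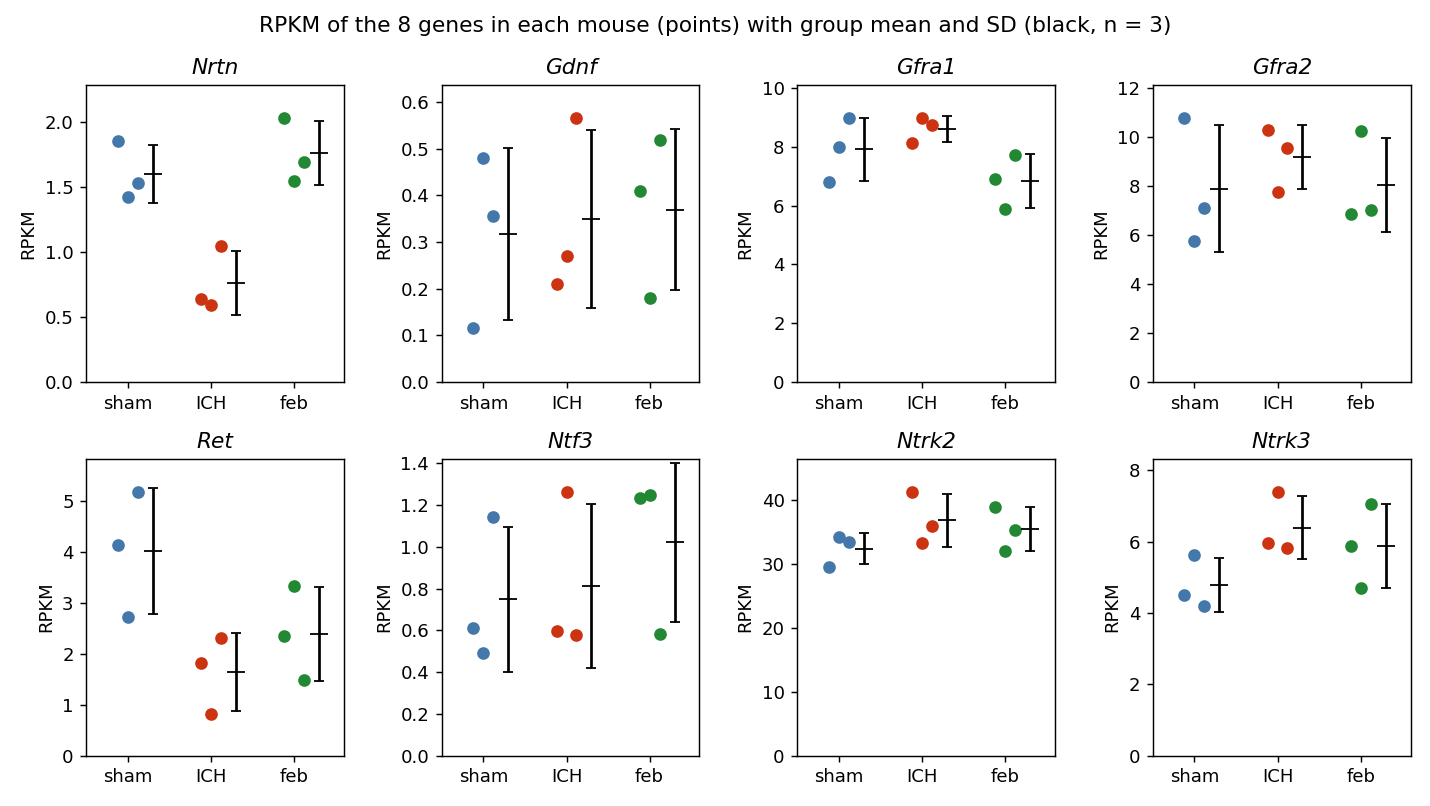
RPKM of the 8 genes, 1 panel each, with a point per mouse, the group mean and SD (n = 3) in black, and each vertical axis starting at 0. In Nrtn and Ret all ICH mice lie below all sham mice, in Ntrk3 all ICH mice lie above all sham mice, and the remaining genes overlap between ICH and sham.

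Of the ligands, Gdnf was the least abundant of the 8 genes. Its RPKM was 0.116, 0.480, and 0.355 (sham), 0.210, 0.271, and 0.566 (ICH), and 0.409, 0.181, and 0.519 (feb). The groups overlapped throughout, and the spread within each was several fold. Its log2 fold change was 0.14 (SE 0.48) between ICH and sham and 0.07 (SE 0.48) between feb and ICH, with adjusted p-values of 0.917 and 0.972 in limma. With these errors a 2-fold difference in Gdnf would not have been separated from the spread. Ntf3 had 0.612, 0.491, and 1.14 (sham), 0.596, 1.26, and 0.579 (ICH), and 1.23, 1.25, and 0.582 (feb). A high and a low level of Ntf3 occurred in every group, and its log2 fold changes were 0.10 and 0.31 (SE 0.41 each, adjusted p = 0.934 and 0.804 in limma) for ICH against sham and feb against ICH.

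Ret, the signaling kinase shared by the GDNF family ligands, showed the largest fall of the 7 genes that were tested. Its RPKM was 4.14, 2.72, and 5.19 (sham), 1.82, 0.815, and 2.32 (ICH), and 2.35, 3.33, and 1.49 (feb). All ICH mice were below all sham mice, and the feb mice overlapped both groups. The log2 fold change between ICH and sham was -1.30 (SE 0.42, unadjusted p = 0.0132, adjusted p = 0.347 in limma). Between feb and ICH it was 0.55 (SE 0.42, adjusted p = 0.641), and between feb and sham -0.75 (SE 0.42, adjusted p = 0.641). Without the second ICH mouse, the lowest of the 9, the log2 fold change between ICH and sham was -0.89 and Ret was no longer called. Its reads numbered 145 to 986 per mouse, so counting error was small beside the spread between mice, which was 63.5 times the counting variance within groups.

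The co-receptors differed less. Gfra1, the preferred partner of GDNF, had an RPKM of 6.81, 7.98, and 8.97 (sham), 8.13, 8.98, and 8.75 (ICH), and 6.92, 5.87, and 7.71 (feb). All feb mice were below all ICH mice, with a log2 fold change of -0.34 (SE 0.13, adjusted p = 0.406 in limma). This is well under the 2-fold limit. The 5 choroid plexus markers, all called lower in feb than in ICH mice and above 0 in every mouse, had a summed RPKM of 362 to 1027 (sham), 454 to 963 (ICH), and 29.8 to 87.1 (feb). The correlation of their mean log2 level with Gfra1 was 0.66 (n = 9). That level averaged 3.26 (sham), 3.56 (ICH), and 0.86 (feb), and Gfra1 was also lowest on average in feb. This difference between groups enters the correlation, and no value for deviations from the group means was computed. The part of these markers in the Gfra1 and Ptn values was not tested. An antisense gene, Gm16277, shares 416 bases of exon with Gfra1 on the other strand, 62.8% of its own length, and its log2 levels followed those of Gfra1 with a Pearson correlation of 0.98 (n = 9). Although the library kit is stranded, the strand setting used in counting is not stated. Whether reads of the overlap were assigned to Gfra1, to Gm16277, or to neither is thus not known. Gfra2, the preferred partner of neurturin, had 10.8, 5.77, and 7.10 (sham), 10.3, 7.75, and 9.54 (ICH), and 6.85, 10.3, and 7.04 (feb). The groups overlapped in every contrast. Its log2 fold changes were 0.26 between ICH and sham and -0.20 between feb and ICH (SE 0.24 each, adjusted p = 0.656 and 0.777 in limma).

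Of the Trk kinases, Ntrk3 was higher in every ICH mouse than in every sham mouse. It had an RPKM of 4.50, 5.62, and 4.20 (sham), 5.95, 7.40, and 5.82 (ICH), and 5.89, 4.69, and 7.04 (feb). The log2 fold change between ICH and sham was 0.42 (SE 0.18, unadjusted p = 0.0434, adjusted p = 0.398 in limma), short of the 2-fold limit, and the feb mice overlapped both other groups. Ntrk2 was the most abundant of the 8 genes, at 29.6, 34.3, and 33.4 (sham), 41.4, 33.3, and 36.0 (ICH), and 38.9, 32.1, and 35.4 (feb). Its groups overlapped, and its log2 fold change was 0.18 (SE 0.11, adjusted p = 0.495 in limma) between ICH and sham and -0.05 (SE 0.11, adjusted p = 0.876) between feb and ICH. Counts are per gene, so the full-length and truncated forms of the Trk receptors were not separated.

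Counting genes whose groups did not overlap, 2 of the 7 (Ret lower, Ntrk3 higher) were parted between ICH and sham, where 19.4% of all genes tested were. Between feb and ICH it was 1 of 7 (Gfra1 lower), where 17.2% of all genes were, and between feb and sham 0 of 7, where 12.7% were. The median log2 fold change of the 7 genes was 0.14 between ICH and sham, -0.05 between feb and ICH, and 0.13 between feb and sham, beside 0.08, -0.01, and 0.05 over all genes tested.

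**Figure D3:**
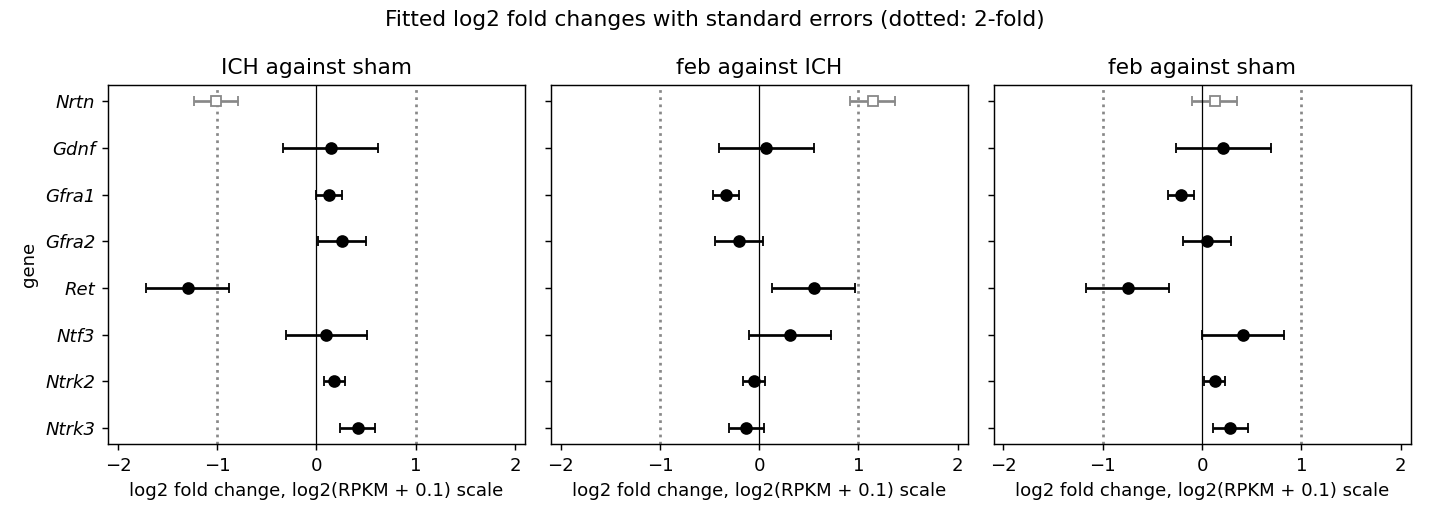
Fitted log2 fold changes on the log2(RPKM + 0.1) scale (horizontal axis) of the 8 genes in the 3 contrasts, with SE as bars and dotted lines at 2-fold. Nrtn is drawn as an open square because it was chosen by these contrasts, and of the others Ret between ICH and sham, at -1.30, is the only point past a dotted line.

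On the RPKM scale, which is per length, the 8 genes ranked by mean level over the 9 mice as Ntrk2 (34.9), Gfra2 (8.37), Gfra1 (7.79), Ntrk3 (5.68), Ret (2.69), Nrtn (1.37), Ntf3 (0.861), and Gdnf (0.345). The 5 receptor genes thus stood above the 3 ligand genes. Ntrk2 was parted from all others, since its lowest mouse (29.6) was above the highest value of Gfra2 (10.8). Every other neighboring pair had overlapping ranges. Gfra2 was above Gfra1 in only 4 of the 9 mice, so these 2 co-receptors have no settled order, whereas Gfra1 was above Ntrk3, and Ntf3 above Gdnf, in all 9.

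Ret and Ntrk3 varied in opposite directions from mouse to mouse. Over the 9 mice their log2 values had a Pearson correlation of -0.96 (Spearman's rho -0.98). Leaving out the 2 mice with the most extreme Ret levels (the second ICH mouse and the third sham mouse) gave -0.96, and for deviations from the group means it was -0.94, so the relation was present within groups as well as between them. The pair was singled out from the 28 pairs of the 8 genes after their values were seen, and the 9 points share the scaling to total reads. The other pairs were weaker, with Pearson values between -0.69 (Gdnf and Gfra2) and 0.64 (Nrtn and Ret). The value for Nrtn and Ret was 0.06 without the first and second ICH mice, so it rested on those.

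Several region and cell type marker lists moved with Ret and Ntrk3, and those described here had the highest correlations with Ret among all lists. The other lists had values with Ret from -0.68 (microglia) to 0.62 (oligodendrocyte precursor). With Ntrk3 the other lists had -0.67 (oligodendrocyte precursor) to 0.64 (striatum). The mean log2 level of the 7 thalamic markers (Prkcd, Lef1, Tnnt1, Synpo2, Plekhg1, Rgs16, and Slc17a6, all above 0 in every mouse) had a Pearson correlation of 0.87 with Ret and -0.77 with Ntrk3 over the 9 mice. Without the 2 mice most extreme in Ret (the second ICH mouse and the third sham mouse) it was 0.63 with Ret. Without the 2 mice lowest in Ntrk3 (the first and the third sham mouse) it was -0.87 with Ntrk3. The second ICH mouse, highest in Ntrk3, was kept in that value. The summed RPKM of the thalamic markers was 133 to 238 (sham), 33.5 to 175 (ICH), and 84.8 to 222 (feb), and the second ICH mouse, with the lowest Ret, also had the lowest thalamic sum. For the 5 oligodendrocyte markers, also above 0 in every mouse, the correlation was 0.81 with Ret and -0.84 with Ntrk3 (0.84 and -0.74 without the same mice), and their sum was 575 to 855 (sham), 466 to 814 (ICH), and 462 to 739 (feb). None of the 12 markers in these 2 lists was called in any contrast. For 4 dopaminergic markers (Th, Slc6a3, Slc18a2, and Ddc), a list added after the data were seen because Ret marks such neurons, the correlation with Ret was 0.76, or 0.47 without the 2 mice most extreme in Ret, and Ddc was called higher in feb than in ICH mice. Their sum was 4.32 to 17.1 (sham), 3.27 to 6.51 (ICH), and 7.39 to 10.6 (feb), and Slc6a3, the dopamine transporter gene, ranged from 0.0554 to 6.01 RPKM (sham), from 0 to 0.165 (ICH), and from 0.0502 to 1.82 (feb). The part of tissue composition in the Ret and Ntrk3 values was not tested.

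**Figure D4:**
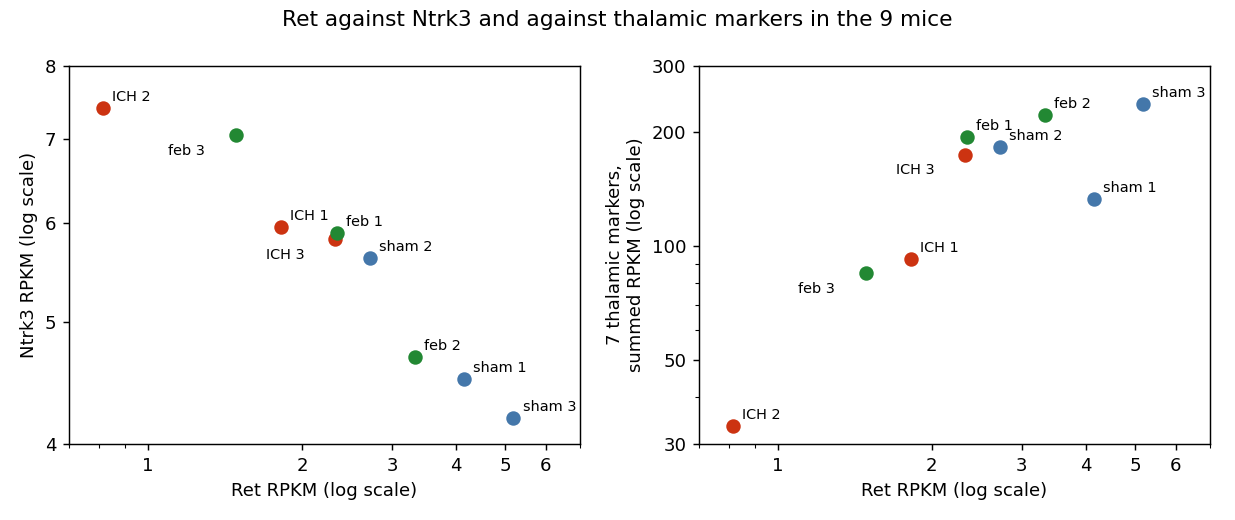
RPKM of Ntrk3 (left) and summed RPKM of 7 thalamic markers (right) against the RPKM of Ret in the 9 mice, all axes on log scales, blue for sham, red for ICH, and green for feb. Ntrk3 falls and the thalamic sum rises with Ret, and the second ICH mouse is at the low end of Ret (0.815) with the highest Ntrk3 (7.40) and the lowest thalamic sum (33.5).

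Levels of several marker lists followed or opposed those of Nrtn across the mice. Of 8 markers of cortical excitatory neurons, 5, among them Tbr1 and Fezf2, were called higher in ICH than in sham mice, 3 (Tbr1 but not Fezf2 among them) were called lower in feb than in ICH mice, and 2 (Neurod6 and Fezf2) were called higher in feb than in sham mice. All 8 were above 0 in every mouse, with a sum of 22.4 to 45.1 (sham), 43.0 to 66.2 (ICH), and 41.0 to 48.3 (feb). The mean log2 level of this list had a Pearson correlation of -0.54 with Nrtn over the 9 mice, and of 0.09 for deviations from the group means. The 5 microglia markers had a correlation of -0.85 with Nrtn, or -0.42 without the first and second ICH mice, and -0.62 for deviations from the group means. Their sum was 35.6 to 45.7 (sham), 40.6 to 77.1 (ICH), and 33.1 to 49.6 (feb), and 0 of them were called in any contrast. Between feb and ICH, Cx3cr1, P2ry12, and Tmem119 were lower in feb, with unadjusted p of 0.0079, 0.011, and 0.012 in limma. Their adjusted p-values were 0.309, 0.328, and 0.338, and C1qa and Csf1r did not reach an unadjusted p under 0.05 in that contrast. Thalamic markers had a correlation of 0.65 with Nrtn that became -0.25 without the first and second ICH mice, and was 0.49 for deviations from the group means. That of the 5 pan-neuronal markers was -0.64, and -0.70 without those mice, with a sum of 536 to 597 (sham), 583 to 608 (ICH), and 530 to 563 (feb) that did not overlap between feb and ICH mice. For deviations from the group means it was 0.12. The astrocyte markers had a correlation of -0.63, which became 0.36 without those mice and was -0.27 for deviations from the group means. The choroid plexus markers had -0.61 over the 9 mice, with no value computed for deviations from the group means. They were lowest on average in feb, whereas Nrtn was lowest in ICH. Among the lists in this paragraph, the sums did not overlap between groups for the pan-neuronal list between feb and ICH and for the choroid plexus list between feb and either other group. Mean log2 levels, on which the correlations rest, parted further groups. The cortical list had 2.26 to 2.65 in the ICH mice, above sham (0.604 to 2.08) and feb (1.52 to 2.23). The pan-neuronal list had 6.56 to 6.62 in the ICH mice, above sham (6.41 to 6.53) and feb (6.42 to 6.51). Its genes did not share a direction. Tubb3 was lower in every ICH mouse (55.7 to 74.5 RPKM) than in every sham mouse (79.8 to 96.7). Snap25 averaged 222 in sham and 221 in ICH, and the means of Rbfox3, Syt1, and Map2 were higher in ICH than in sham. The microglia list had 2.78 to 3.50 in the ICH mice, above feb (2.44 to 2.75) but overlapping sham (2.49 to 2.87). The part of these differences in the Nrtn values was not tested.

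The 5 genes with a pattern most like Nrtn, by Pearson correlation of log2(RPKM + 0.1) over the 9 mice among 13858 genes with a mean RPKM of at least 1 and at least 1000 bases of exon, were Fxr2 (0.96), Fndc10 (0.96), Bfsp1 (0.95), Klhl11 (0.93), and Chd4 (0.93). Fxr2 encodes an RNA-binding protein, Bfsp1 a filament protein of the eye lens, and Chd4 a chromatin remodeler. Likeness ignores the size of a change, and these genes differed between groups by less than Nrtn. Fxr2 ranged from 26.0 to 26.6 RPKM (sham), 23.5 to 25.5 (ICH), and 25.9 to 27.2 (feb), and Chd4 from 65.5 to 71.2, 58.1 to 62.1, and 67.7 to 70.7. Closer to Nrtn in size, Fndc10 ranged from 2.23 to 2.82 (sham), 1.47 to 2.02 (ICH), and 2.39 to 2.78 (feb). When samples were scaled to equal medians, 1 of these 5 remained among the first 5.

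Other genes of the pathway were taken from 5 lists of 48 genes in all. The filter on low values left 44, and Gfra3, Gfral, Gdf15, and Ntf5 were below it with at most 6 reads in any mouse. Between ICH and sham 0 of the 44 were called, between feb and ICH 0, and between feb and sham 1, where 2.53%, 2.43%, and 2.20% of all genes tested were called. An unadjusted p under 0.05 in limma was reached by 6, 7, and 3 of the 44, where 12.3%, 11.1%, and 8.54% of all genes reached it, and an adjusted p under 0.05 by 0 in each contrast. Without overlap between groups, 8 of the 44 were higher and 2 lower in ICH than in sham mice, where 19.4% of all genes did not overlap, 1 was higher and 7 were lower in feb than in ICH mice (17.2% of all genes), and 1 was higher and 4 were lower in feb than in sham mice (12.7% of all genes). These counts are near those of all genes, and nothing is read from them about the lists. The median log2 fold changes of the 44 genes were 0.11, -0.09, and 0.003, beside 0.08, -0.01, and 0.05 over all genes tested.

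The remaining ligands and receptors of the GDNF family that were tested (Artn, Pspn, Gfra4, and Ncam1) reached an unadjusted p under 0.05 in no contrast. Pspn, the gene of the family ligand persephin, had 0.714, 0.726, and 0.826 (sham), 0.603, 0.561, and 0.403 (ICH), and 0.478, 1.17, and 0.274 (feb), and the sham and ICH mice did not overlap. Its log2 fold change between ICH and sham was -0.47 (SE 0.40, adjusted p = 0.620 in limma). Gfra4, the co-receptor of persephin, was between 9.75 and 9.94 in the ICH mice, above all sham (7.46 to 9.65) and all feb mice (8.36 to 9.25), by a log2 fold change of 0.21 (SE 0.10, adjusted p = 0.428 in limma) against sham. These genes, the other neurotrophin genes, and the downstream and further family genes named next were picked for description after their values were seen.

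Among the other neurotrophin genes, Bdnf had 1.55, 0.775, and 1.17 (sham), 1.73, 2.87, and 1.11 (ICH), and 2.08, 1.54, and 1.42 (feb). The groups overlapped, with a log2 fold change of 0.61 (SE 0.35, adjusted p = 0.475 in limma) between ICH and sham. Sort1, the gene of the sorting receptor sortilin that binds pro-neurotrophins, was 29.5, 32.1, and 30.2 (sham), 34.2, 40.1, and 38.3 (ICH), and 33.4, 33.4, and 32.0 (feb). Every ICH mouse exceeded every sham and feb mouse, with log2 fold changes of 0.29 (SE 0.08, adjusted p = 0.334 in limma) against sham and -0.19 (SE 0.08, adjusted p = 0.430) for feb against ICH.

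Downstream of the receptors, Dusp6, a phosphatase that dampens ERK signaling, was 3.97, 4.30, and 3.80 (sham), 5.86, 5.48, and 6.12 (ICH), and 5.49, 4.02, and 3.77 (feb). Its log2 fold change between ICH and sham was 0.52 (SE 0.14, adjusted p = 0.341 in limma). Among the 13 adaptor genes, Grb2 (17.3 to 20.3 in sham, 21.7 to 26.8 in ICH) and Dok6 (5.43 to 6.46 in sham, 6.67 to 8.86 in ICH) did not overlap between these groups, with log2 fold changes of 0.42 and 0.46 (SE 0.13 and 0.14, adjusted p = 0.347 for both in limma). Neither was parted between feb and ICH. Of the further families, Ptn, the gene of the heparin-binding growth factor pleiotrophin, had 129, 122, and 131 (sham), 151, 128, and 149 (ICH), and 80.8, 117, and 83.8 (feb). It was lower in every feb mouse than in every other mouse, with a log2 fold change of -0.62 (SE 0.14, adjusted p = 0.252 in limma) between feb and ICH, under the 2-fold limit.

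**Figure D5:**
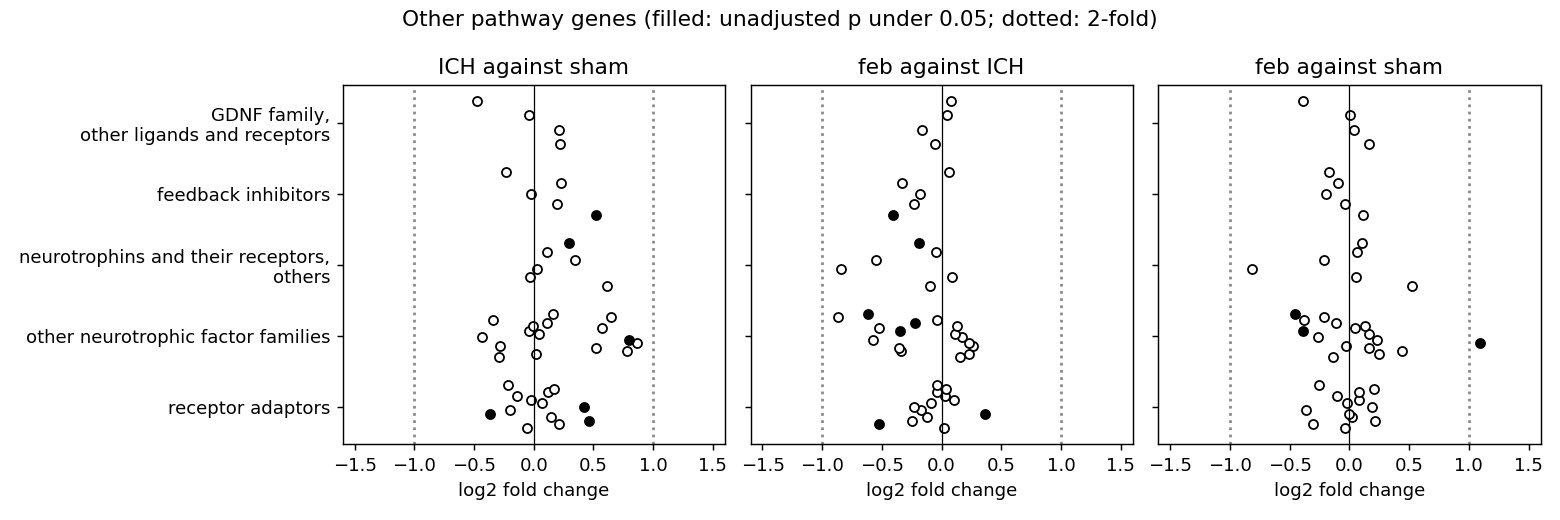
Log2 fold changes (horizontal axis) of the 44 tested pathway genes in 5 lists for the 3 contrasts, each point a gene, filled where the unadjusted p was under 0.05, with dotted lines at 2-fold. In the 3 contrasts 1 point, between feb and sham, lies past a dotted line.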

How the data were processed

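Total RNA of 9 mouse brains was depleted of rRNA and sequenced with unique molecular identifiers. Per the submitters' processing notes and the methods, the authors trimmed reads with Trimmomatic 0.36, merged those sharing an identifier, mapped the result to GRCm38, assigned it to exons with featureCounts (Subread 1.5.1), and deposited RPKM values. The annotation release, strand setting, and treatment of multi-mapping reads are not given in the sources used here. The study called genes with edgeR, but its counts were not analysed here. All RPKM values, multiplied by exon length, were whole multiples of 1 read (tolerance 0.01), which gave the reads quoted.

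Groups came from the labels. Genes reaching 0.1 RPKM in 3 or more mice (29025 of 38621) were fitted with limma 3.58.1 (R 4.3.3, lmFit and eBayes with trend) on log2(RPKM + 0.1), all 9 mice in the same fit and no block, and p-values were adjusted by Benjamini-Hochberg. Fold changes on this scale understate those of low genes. With 3 mice against 3, an exact permutation test cannot go below 0.1 (two-sided), so none was run on single genes. The fit was tested on simulated reads with the same spread for every gene and larger changes than any fitted for the 8 genes. Changes were put only into genes with more reads than the means of Nrtn, Gdnf, and Ntf3, so the simulation does not cover those. The members, gene lists, and marker lists were chosen with earlier results of these data known. Named genes were the 8 members, pathway genes called in a contrast, the 5 genes most like Nrtn, and overlapping genes. The text says where others were added. Some genes of the lists are not reported here by name. Alternatives were a pseudocount of 1 or 0.01, dropping the filter or raising it to 1 RPKM, scaling to equal medians, voom on the recovered reads, a fit of the groups compared, the replicate number as a block, and each mouse left out. Promoters are from RefSeq (GRCm38.p6), with an entry for 5 of the 8 genes, and the spans of 5 of the 8 genes in the table, Nrtn among them, equal those of the GENCODE annotation used here. Tables were made with Python 3.11.15, pandas 2.3.3, and scipy 1.17.1.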

Additional observations from a re-analysis of the deposited data

How the results depend on the processing

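Between ICH and sham, 1 of the 7 tested members (Ret) was called in all settings other than a pseudocount of 1 (0 called, Ret at -0.93) and without the second ICH mouse (Ret at -0.89), so the count was 0 to 1 with any mouse left out. In the other contrasts the count of members was 0 throughout. Of the pathway genes, 0 were called between ICH and sham, against 1 with a pseudocount of 0.01 and 1 with voom, in both cases Hgf, and 0 to 2 with a mouse left out (1 without the third sham mouse, 1 without the first ICH mouse, and 2 without the third ICH mouse). Between feb and ICH it was 0, against 1 with voom (Met) and 0 to 1 with a mouse left out (Met without the first ICH mouse, Ngfr without the third feb mouse). The single call between feb and sham became 0 with a pseudocount of 1, an RPKM of at least 1, equal medians, and a fit of the 2 groups, and with a mouse left out the count was 0 to 1. The causes were not tested. Of the members never called, Gfra1 kept its sign in each contrast, and the others changed sign in at least 1 contrast when mice were left out. Over those fits the log2 fold change of Gdnf ran from -0.28 to 0.44 (ICH against sham), -0.17 to 0.40 (feb against ICH), and -0.21 to 0.55 (feb against sham). That of Ntf3 ran from -0.23 to 0.41 (ICH against sham), and between feb and ICH that of Ntrk2 from -0.13 to 0.031 and that of Ntrk3 from -0.27 to 0.019. Gfra2 between feb and sham ran from -0.14 to 0.30 and was -0.061 with equal medians. The direction of Nrtn was fixed by its choice in these mice, and its difference of ICH from sham spanned -1.24 to -0.88 and that of feb from ICH 1.01 to 1.37 with a mouse left out. Of all genes, 735, 706, and 639 were called in the 3 contrasts in the order above, against 158, 128, and 91 with a pseudocount of 1, and 346, 287, and 263 among genes with an RPKM of at least 1. Without the second sham mouse 1299 (ICH against sham) and 1150 (feb against sham) were called, and without the second feb mouse 1030 (feb against sham). No pairing of the mice by replicate number was seen, as deviations of same-numbered mice had correlations of -0.13 to 0.02. With so few mice this cannot exclude that they were handled together. With the replicate number as a block, 1, 0, and 0 members were called and 717 genes between ICH and sham. Nrtn, Gdnf, and Ntf3 had 12 to 57 reads per mouse, and in Gdnf and Ntf3 the spread between mice was above counting error.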

Other observations

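Ngfr, the gene of a receptor shared by the neurotrophins, varied among mice of the same group. It had an RPKM of 1.19, 4.13, and 2.23 (sham), 2.999, 1.88, and 2.09 (ICH), and 0.899, 0.690, and 2.84 (feb). It was highest in the second sham mouse and lowest in the second feb mouse. Between feb and ICH its log2 fold change was -0.84 (SE 0.55, adjusted p = 0.589 in limma), and without the third feb mouse, the highest of its group, it was called at -1.42, as was the difference from sham at -1.39. No other mouse left out gave a call, and without the second feb mouse these values were -0.47 and -0.44, and without the second sham mouse the difference from sham was -0.39. Over the 9 mice its log2 values had a Pearson correlation of 0.63 with 3 cholinergic markers (Chat, Slc5a7, and Slc18a3, a list added after the data were seen), which was 0.24 without the first and second feb mice.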
